A study of Homo sapiens with 15 samples.

Results

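The genes described here are BMP2 and 9 other genes of bone morphogenetic protein (BMP) signalling: the ligand genes BMP4 and BMP7, the receptor genes BMPR1A and BMPR2, and the target genes ID1, ID2, ID3, SMAD6 and SMAD7. The set was chosen by the RNA level of BMP2, which was lower in 4 knockout clones of HEK293T cells than in their control, and the question was whether that difference shows in the target genes. These are 10 of the 58735 genes listed per library, and all 10 were among the 16175 genes with enough RNA to be tested. HEK293T cells derive from human embryonic kidney. The RNA of 5 groups was sequenced, of which 4 are named here by their genotype, C9orf89-KO, MAGI2-KO, MLPH-KO and RHBDD2-KO, and the fifth is Non-target, a control with the genotype WT. All 5 groups carried lentiCRISPRv2, a lentiviral CRISPR vector, with a guide RNA against the named gene or, in Non-target, a guide without a target, and had been selected with puromycin. Each group was established by limiting dilution and is represented by 3 wells. The effect of a knockout and the differences between single clones therefore cannot be told apart, and p-values measure the spread between wells. All 4 comparisons with Non-target share the same 3 Non-target wells.

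BMPs are secreted dimers that bind a complex of type I receptors, such as the product of BMPR1A, and type II receptors, such as that of BMPR2. The receptors phosphorylate SMAD1, SMAD5 and SMAD9, which enter the nucleus with SMAD4 and switch on target genes. Among the best known direct targets are ID1, ID2 and ID3, whose proteins bind E proteins and keep them from DNA, and SMAD6 and SMAD7, whose proteins inhibit the pathway in return.

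The letters that SMAD proteins are known to bind were looked for on both strands in the 250 bases before each start site that the RefSeq table (GRCh38.p14) lists for 8 of the 10 genes. BMP2 and BMP7 were not searched. The SMAD1 and SMAD5 motifs were GGCGCC, which is its own reverse complement, and GGAGCC, which reads as GGCTCC on the other strand. The SMAD4 motif was CAGAC, which reads as GTCTG on the other strand. None of these motifs lies within another. Of 35116 promoters of that length, 16.4% held GGCGCC, 30.6% held GGAGCC and 38.0% held CAGAC, so a match is a common event and only describes the letters. The 30-base stretches around the matches of ID1, ID3 and SMAD6 are shown because lower means of these 3 targets are described below. For ID1 these did not pass in the fit over all wells with group as the only term. The choice followed the results, so the stretches are no support for them. They are written 5′ to 3′ on the strand of the gene, with the motif in capitals.
ID1, chr20:31605039-31605068, plus strand, 248 bases before the start: gaGGAGCCcagtgcggccctcgcctctacc
ID1, chr20:31605259-31605288, plus strand, 14 bases before the start: ataaaagacaagctgtGGCTCCgcactctc
ID3, chr1:23559651-23559680, minus strand, 167 bases before the start: ctttgaatccgcGGCTCCgcggtcttcggc
ID3, chr1:23559631-23559660, minus strand, 147 bases before the start: ggtcttcggcgtCAGACcagccggaggaag
SMAD6, chr15:66702100-66702129, plus strand, 124 bases before the start: cggcccgccccgGGAGCCggccccttggag
SMAD6, chr15:66702114-66702143, plus strand, 110 bases before the start: agccggccccttGGAGCCtccggccctgca
SMAD6, chr15:66702198-66702227, plus strand, 26 bases before the start: aatcagcgccgcGGAGCCgccaaagtgtct
The windows of ID2 and BMPR1A held none of these letters. The window of BMPR2 held GGCGCC 1 time, GGAGCC 1 time and CAGAC 2 times. BMP4 has 3 listed start sites, whose windows held GGCGCC 1, 0 and 0 times, GGAGCC 0, 0 and 1 times and CAGAC or its reverse complement 1, 0 and 1 times. SMAD7 has 3 listed start sites, whose windows held CAGAC or its reverse complement 2, 1 and 0 times and GGAGCC 0, 0 and 1 times.

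The depth was 15517856 to 19489918 fragments on genes per library, as recovered from the values. Wells with the number 1 stood apart: after the group means were taken out, wells 1 of different groups had a median correlation across genes of 0.212 (0.128 to 0.312, 10 pairs), against 0.0383 for wells 2 and 0.0795 for wells 3, so values without wells 1 are given where the call of one of the members turned on them. The cell type was checked with 10 markers of HEK293T, of which 8 had a mean of at least 1 FPKM (fragments scaled to exon length and to the depth of the library) in Non-target, 9 in C9orf89-KO, 7 in MAGI2-KO, 10 in MLPH-KO and 7 in RHBDD2-KO. Their summed level was 148 to 151 FPKM per well in Non-target, 156 to 160.2 in C9orf89-KO, 129 to 146 in MAGI2-KO, 207 to 215 in MLPH-KO and 85.8 to 95.0 in RHBDD2-KO, with VIM the most abundant gene in each group. None of 9 myeloid markers reached 1 FPKM in any group, and of 9 markers of mesenchymal stem cells and fibroblasts 1 or 2 did, led by COL1A1. The HEK293T markers moved with the groups, and their part in the results was not tested. Of the targeted genes, RHBDD2 RNA was 27.4 to 38.1 FPKM in Non-target and 11.2 to 13.5 FPKM in RHBDD2-KO, but also 11.7 to 16.0 FPKM in MAGI2-KO. C9orf89 (CARD19) RNA was 5.70 to 7.71 FPKM in Non-target and 4.27 to 4.34 FPKM in C9orf89-KO, and 4.52 to 5.17 FPKM in RHBDD2-KO. MAGI2 RNA was under 0.13 FPKM in every well and MLPH is listed at 0 in every well, so RNA gives no check of the labels of these 2 clones.

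BMP2 (ENSG00000125845, chromosome 20 of GRCh38 from 6767664 to 6780280), whose product is a dimeric ligand first known for bone formation, was highest in Non-target and lower in all 12 clone wells. Its RNA level was 1.68, 1.51 and 1.44 FPKM in the Non-target wells and 0.943, 1.00 and 0.742 FPKM in MLPH-KO. It was 0.353, 0.370 and 0.400 FPKM in C9orf89-KO, 0.129, 0.186 and 0.128 FPKM in MAGI2-KO, and 0.183, 0.115 and 0.239 FPKM in RHBDD2-KO. No clone well reached the lowest Non-target well, and the clones other than MLPH-KO lay below every MLPH-KO well. The mean was 0.581 times that of Non-target in MLPH-KO, 0.243 times in C9orf89-KO, 0.116 times in RHBDD2-KO and 0.0958 times in MAGI2-KO. On the scale used for the tests, log2(FPKM + 0.1), the differences from Non-target were −0.73, −1.79, −2.58 and −2.73 (standard error 0.21 each). These differences chose the genes and are given as a description, with no test. They rest on 84 to 97 fragments per Non-target well, 49 to 68 in MLPH-KO, 21 to 24 in C9orf89-KO, 9 to 13 in MAGI2-KO and 7 to 14 in RHBDD2-KO. In bulk RNA, fewer cells with BMP2 RNA and less of it per cell cannot be told apart. The 100 tested genes nearest to BMP2 on chromosome 20 had median log2 fold changes of −0.12 to −0.04 in the 4 clones.

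The BMP2 levels of the clones belong to the values that chose the genes, so their differences are also a description, with no test. The wells of C9orf89-KO lay above all wells of MAGI2-KO and RHBDD2-KO, by 0.94 and 0.79 on the log2 scale between the means. The wells of MLPH-KO lay above all wells of the other 3 clones, by 1.85 against RHBDD2-KO, and the log2 fold change against MLPH-KO was −1.06 in C9orf89-KO and −2.01 in MAGI2-KO. The wells of MAGI2-KO and RHBDD2-KO overlapped, with a difference of −0.16. The order of the mean levels was Non-target, MLPH-KO, C9orf89-KO, RHBDD2-KO and MAGI2-KO.

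**Figure D1:**
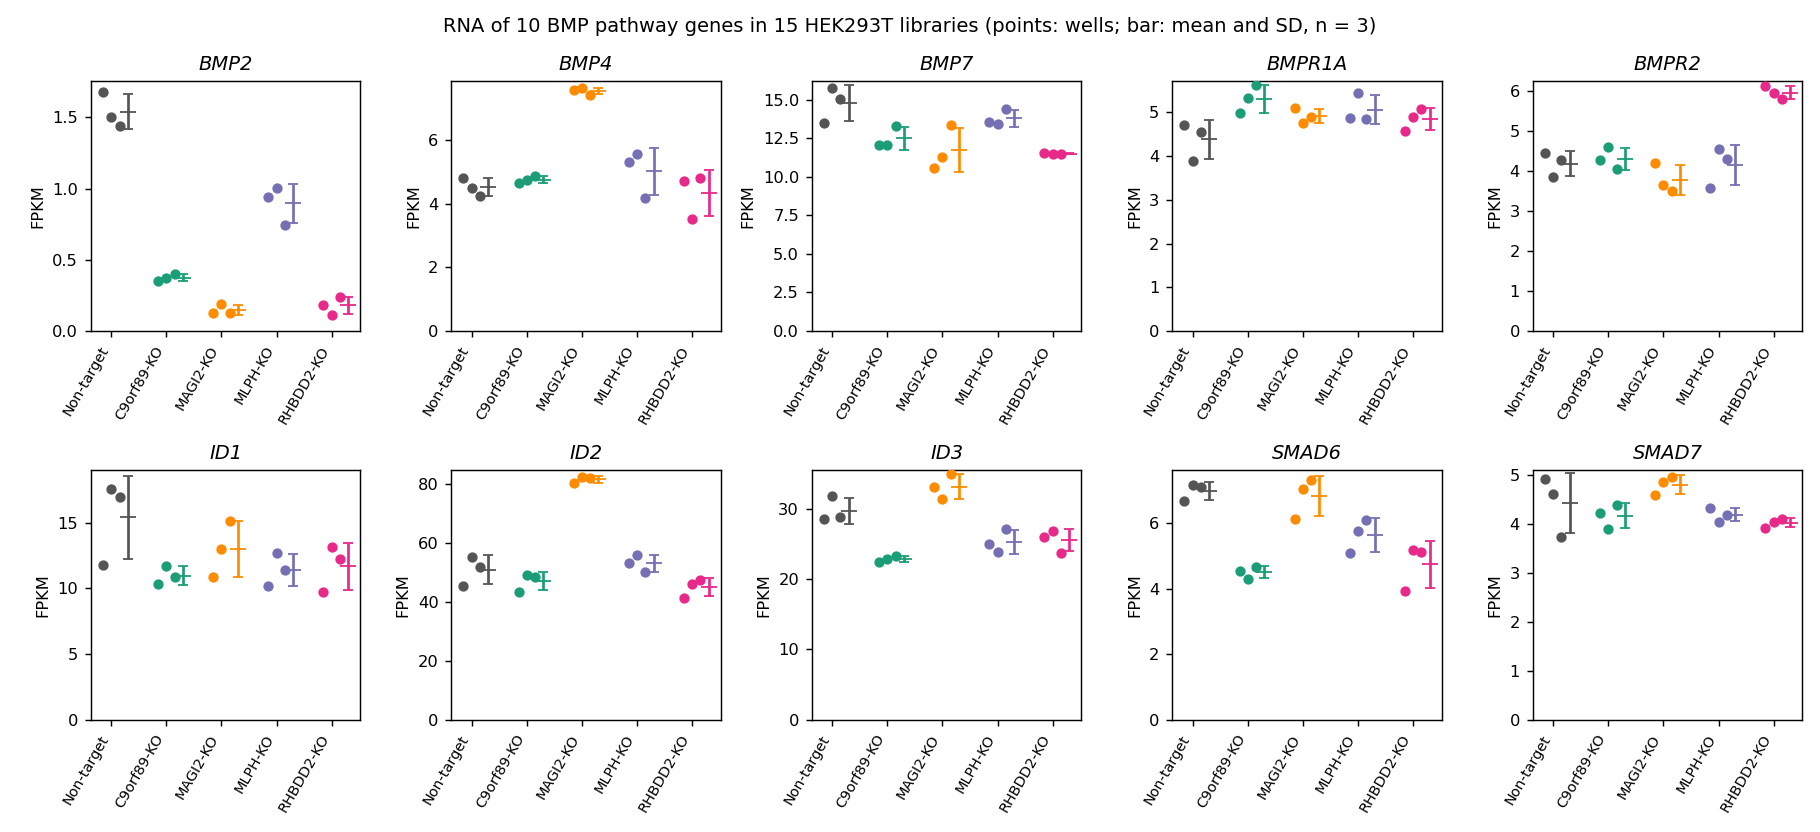
RNA level in FPKM (vertical axes, from 0) of the 10 genes in the 5 groups. Points are single wells and the bar beside them is the mean with its SD (n = 3 wells); BMP2 is lower in every clone well than in Non-target, while ID2 and BMP4 stand out in MAGI2-KO and BMPR2 in RHBDD2-KO.

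BMP4, a close relative of BMP2, rose in MAGI2-KO and in no other clone passed the threshold. BMP4 (ENSG00000125378, chromosome 14 from 53949736 to 53958761) was at 4.81, 4.51 and 4.25 FPKM in Non-target and at 7.59, 7.63 and 7.43 FPKM in MAGI2-KO. The wells of these 2 groups did not overlap, and the log2 fold change was 0.73 (standard error 0.12, adjusted p = 0.000447, limma). The 100 tested genes nearest to it had a median of 0.27 in that clone. BMP4 levels in C9orf89-KO (4.66, 4.76 and 4.87 FPKM), MLPH-KO (5.31, 5.58 and 4.18 FPKM) and RHBDD2-KO (4.72, 3.51 and 4.81 FPKM) overlapped with Non-target, with log2 fold changes of 0.07, 0.14 and −0.07. MAGI2-KO also had more BMP4 RNA than each of the other 3 clones, by 0.59 to 0.80 on the log2 scale (limma adjusted p = 0.000172 to 0.00368).

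BMP7, which signals through the same SMAD proteins, was the most abundant BMP ligand RNA in each group. Its level (ENSG00000101144, chromosome 20 from 57168748 to 57266629) was 13.5, 15.8 and 15.1 FPKM in Non-target, 10.6, 11.3 and 13.4 FPKM in MAGI2-KO and 11.6, 11.5 and 11.5 FPKM in RHBDD2-KO. It fell by 0.33 on the log2 scale in MAGI2-KO (adjusted p = 0.00753, limma) and by 0.36 in RHBDD2-KO (adjusted p = 0.0056, limma), and in both clones every well lay below every Non-target well. The call in MAGI2-KO was lost when only these 6 libraries entered the fit (adjusted p = 0.059), and that in RHBDD2-KO when the values were rescaled to TPM (log2 fold change −0.21, adjusted p = 0.146). BMP7 was at 12.1, 12.1 and 13.3 FPKM in C9orf89-KO (log2 fold change −0.24, adjusted p = 0.0524, limma) and at 13.6, 13.4 and 14.4 FPKM in MLPH-KO (−0.10, adjusted p = 0.433). In C9orf89-KO it passed without Non-target replicate 1 (−0.30, adjusted p = 0.0262) or C9orf89-KO replicate 3 (−0.29, adjusted p = 0.0477), and without MAGI2-KO replicate 1 (−0.24, adjusted p = 0.037) or 3 (−0.24, adjusted p = 0.021). It also passed there without wells 1 of every group (−0.28, adjusted p = 0.0427). With all libraries it passed there under voom (adjusted p = 0.049), with a mean of at least 1 FPKM (0.0481) and with a replicate block (0.0161).

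Over the list of 12 BMP ligand genes, of which 8 were tested, the summed level was 33.7 ± 1.87 FPKM (SD, n = 3 wells) in Non-target. It was 28.5 ± 1.80 FPKM in C9orf89-KO, 28.98 ± 2.64 in MAGI2-KO, 31.4 ± 1.03 in MLPH-KO and 27.2 ± 0.804 in RHBDD2-KO. BMP2 made up 4.60% of this sum in Non-target, 2.86% in MLPH-KO, 1.31% in C9orf89-KO, 0.656% in RHBDD2-KO and 0.512% in MAGI2-KO. BMP7 made up 40.5% to 44.0% of it. BMP6, the ligand that drives hepcidin in the liver, fell in C9orf89-KO (log2 fold change −0.58, adjusted p = 0.00261, limma) and in MAGI2-KO (−0.93, adjusted p = 4.56e-05), and BMP4 took a larger share in MAGI2-KO (26.2%) than in Non-target (13.5%). GDF6, a ligand of joint and eye development, had a mean of 1.43 FPKM in the Non-target wells, against 0.187 FPKM in RHBDD2-KO, a log2 fold change of −2.43 (adjusted p = 5.07e-07, limma). It also fell in C9orf89-KO (−0.58, adjusted p = 0.0239, under 17 of 25 settings) and MLPH-KO (−0.62, adjusted p = 0.0144, under 23 of 25). GDF7, a ligand of the dorsal neural tube, fell in RHBDD2-KO (−0.60, adjusted p = 0.00217) and rose in MAGI2-KO (0.45, adjusted p = 0.011) and, under only 8 of 26 settings, in MLPH-KO (0.34, adjusted p = 0.0466).

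Of the receptors, BMPR2 rose in RHBDD2-KO. BMPR2 (ENSG00000204217, chromosome 2 from 202376936 to 202567751), the main type II receptor for BMPs, was at 4.44, 3.83 and 4.26 FPKM in Non-target and at 6.10, 5.94 and 5.78 FPKM in RHBDD2-KO. The wells did not overlap, and the log2 fold change was 0.50 (standard error 0.10, adjusted p = 0.00174, limma). It was 0.04 in C9orf89-KO, −0.15 in MAGI2-KO and −0.02 in MLPH-KO, where the wells overlapped with Non-target. BMPR2 was also higher in RHBDD2-KO than in C9orf89-KO, MAGI2-KO and MLPH-KO (limma adjusted p = 0.00324, 0.000173 and 0.00109).

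BMPR1A (ENSG00000107779, chromosome 10 from 86756601 to 86932838), a type I receptor that binds BMP2 and BMP4, was at 4.71, 3.88 and 4.55 FPKM in Non-target and at 4.98, 5.33 and 5.62 FPKM in C9orf89-KO. It rose there by 0.27 on the log2 scale (adjusted p = 0.027, limma; standard error 0.08). The call was lost without Non-target replicate 2 (0.19, adjusted p = 0.112), without C9orf89-KO replicate 2 (0.27, adjusted p = 0.0691), without C9orf89-KO replicate 3 (0.23, adjusted p = 0.0978) and with only the 6 libraries contrasted (adjusted p = 0.103). The 100 tested genes nearest to BMPR1A had a median of 0.31 in C9orf89-KO, 0.27 in MAGI2-KO, 0.33 in MLPH-KO and −0.04 in RHBDD2-KO. BMPR1A was at 4.76 to 5.10 FPKM in MAGI2-KO, 4.86 to 5.45 in MLPH-KO and 4.57 to 5.08 in RHBDD2-KO, with log2 fold changes of 0.17, 0.21 and 0.15. In MLPH-KO it passed without Non-target replicate 1 (0.26, adjusted p = 0.0488) and without wells 1 of every group (0.29, adjusted p = 0.0445), and in RHBDD2-KO with TPM scaling (0.30, adjusted p = 0.034). No pair of clones passed for BMPR1A.

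ID1, the target most often used as a readout of BMP signalling, had lower means in all 4 clones than in Non-target, and none of the 4 differences passed the threshold in the fit over all wells with group as the only term. ID1 (ENSG00000125968, chromosome 20 from 31605283 to 31606515) was at 11.8, 17.5 and 16.9 FPKM in Non-target. Well 1 of Non-target lay within the range of the clones, and wells 2 and 3 lay above all 12 clone wells. The clone wells were at 10.3, 11.7 and 10.9 FPKM in C9orf89-KO, 10.9, 13.0 and 15.1 in MAGI2-KO, 10.2, 12.7 and 11.4 in MLPH-KO, and 9.69, 13.1 and 12.2 in RHBDD2-KO. Well 1 was the lowest of the 3 in each of the 5 groups. The log2 fold changes were −0.47 (95% interval −0.82 to −0.11, adjusted p = 0.0523, limma) in C9orf89-KO, −0.23 (−0.59 to 0.12, adjusted p = 0.297) in MAGI2-KO, −0.42 (−0.77 to −0.06, adjusted p = 0.0742) in MLPH-KO and −0.39 (−0.74 to −0.03, adjusted p = 0.0872) in RHBDD2-KO. The calls of ID1 changed with the settings. Without Non-target replicate 1, ID1 passed in C9orf89-KO (−0.65, adjusted p = 0.00829), MAGI2-KO (−0.42, adjusted p = 0.0492), MLPH-KO (−0.60, adjusted p = 0.0116) and RHBDD2-KO (−0.57, adjusted p = 0.0122). Leaving out wells 1 of every group gave −0.61, −0.29, −0.52 and −0.44 (adjusted p = 0.00191, 0.0297, 0.00311 and 0.00545, limma). In C9orf89-KO the call was also made without RHBDD2-KO replicate 1 (adjusted p = 0.0404), without MAGI2-KO replicate 1 (0.0435) and without MAGI2-KO replicate 3 (0.0479), and with all libraries under voom (0.0472) or with a mean of at least 1 FPKM (0.0466). With the replicate number as a block, ID1 passed in C9orf89-KO, MLPH-KO and RHBDD2-KO (adjusted p = 0.00194, 0.00341 and 0.0046, limma) and not in MAGI2-KO. No pair of clones passed for ID1 in the fit over all wells, while C9orf89-KO was lower than MAGI2-KO without wells 1 of every group (−0.31, adjusted p = 0.0302, limma). MAGI2-KO, with the lowest BMP2 mean, had the highest ID1 mean of the clones, 13.0 FPKM. Its wells overlapped with those of RHBDD2-KO in both genes.

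ID2 was the most abundant of the 10 RNAs in every group and rose in MAGI2-KO, the clone with the lowest BMP2 mean, although its BMP2 wells overlapped with those of RHBDD2-KO. ID2 (ENSG00000115738, chromosome 2 from 8678845 to 8684453) was at 45.5, 55.2 and 51.8 FPKM in Non-target and at 80.2, 82.4 and 82.0 FPKM in MAGI2-KO. No well of another group came near these 3, and the log2 fold change was 0.68 (standard error 0.08, adjusted p = 2.83e-05, limma). ID2 in the other clones, at 43.5, 49.1 and 48.5 FPKM in C9orf89-KO, 53.2, 56.0 and 50.2 in MLPH-KO and 41.4, 46.2 and 47.4 in RHBDD2-KO, overlapped with Non-target. Their log2 fold changes were −0.11, 0.07 and −0.17, and the last passed without Non-target replicate 1 (−0.25, adjusted p = 0.0259, limma) and without wells 1 of every group (−0.19, adjusted p = 0.028). The last also passed with a replicate block (adjusted p = 0.0295, limma). MAGI2-KO exceeded the other 3 clones in ID2 by 0.62 to 0.86 on the log2 scale (limma adjusted p = 3.03e-06 to 0.000137). An antisense gene, ID2-AS1, shares 38 exon bases with ID2, 1.72% of its exon length, and had a mean of 0.170 FPKM.

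ID3 fell in 3 clones and had a higher mean in MAGI2-KO than in Non-target, a difference that did not pass. ID3 (ENSG00000117318, chromosome 1 from 23557918 to 23559794) was at 28.5, 31.8 and 28.8 FPKM in Non-target and at 22.4, 22.8 and 23.2 FPKM in C9orf89-KO. It fell there by 0.38 on the log2 scale (limma adjusted p = 0.0014, standard error 0.07), under all 26 alternative settings. The falls in MLPH-KO (24.9, 23.8 and 27.1 FPKM, log2 fold change −0.23, adjusted p = 0.0209) and RHBDD2-KO (25.9, 26.8 and 23.7 FPKM, −0.22, adjusted p = 0.0248) had no overlap with Non-target either, but were called under 20 of 26 settings each. They were lost without Non-target replicate 2 (adjusted p = 0.086 and 0.106, limma), and also without wells 1 of every group (−0.25 and −0.26, adjusted p = 0.0628 and 0.0508). In MLPH-KO the call was also lost without its replicate 1 (−0.22, adjusted p = 0.0517) or 2 (−0.19, adjusted p = 0.0896), and in RHBDD2-KO without its replicate 3 (−0.17, adjusted p = 0.11). In MAGI2-KO, ID3 was at 33.1, 31.3 and 34.9 FPKM (log2 fold change 0.16, adjusted p = 0.0912, limma), and passed without Non-target replicate 2 (0.21, adjusted p = 0.0455) and with quantile normalization (0.21, adjusted p = 0.0219). MAGI2-KO had more ID3 RNA than C9orf89-KO, MLPH-KO and RHBDD2-KO (limma adjusted p = 0.000117, 0.00126 and 0.000672), the last lost with TPM scaling (0.21, adjusted p = 0.0541). The 100 tested genes nearest to ID3 on chromosome 1 had medians of 0.55, 0.55, 0.47 and 0.49 in C9orf89-KO, MAGI2-KO, MLPH-KO and RHBDD2-KO, opposite in sign to ID3 in the 3 clones where it fell.

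SMAD6, whose product competes with the activated SMADs of the BMP branch, fell in C9orf89-KO and RHBDD2-KO. SMAD6 (ENSG00000137834, chromosome 15 from 66702228 to 66782848) was at 6.68, 7.17 and 7.09 FPKM in Non-target, 4.53, 4.30 and 4.67 in C9orf89-KO and 3.92, 5.19 and 5.10 in RHBDD2-KO. Every well of both clones lay below every Non-target well. The log2 fold changes were −0.62 (standard error 0.11, adjusted p = 0.000989, limma) and −0.56 (adjusted p = 0.00153), and both passed under all 26 alternative settings. In MLPH-KO, at 5.08, 5.76 and 6.10 FPKM, SMAD6 fell by 0.30 with an adjusted p of 0.0484 (limma), and passed under only 10 of 26 settings. Leaving out any one of 11 single libraries ended that call, among them each Non-target well (adjusted p = 0.0646, 0.12 and 0.117) and MLPH-KO replicates 1 (0.16) and 2 (0.0878), each C9orf89-KO well (0.0581, 0.0588 and 0.0601), MAGI2-KO replicates 2 (0.0618) and 3 (0.0538) and RHBDD2-KO replicate 3 (0.0519). In MAGI2-KO SMAD6 was at 6.12, 7.05 and 7.31 FPKM and overlapped with Non-target (log2 fold change −0.03, 95% interval −0.27 to 0.20, adjusted p = 0.84, limma). MAGI2-KO also had more SMAD6 RNA than C9orf89-KO (adjusted p = 0.00166, limma) and RHBDD2-KO (adjusted p = 0.0016; 0.0501 with TPM scaling). The difference from MLPH-KO, 0.27, did not pass in the fit over all wells with group as the only term (adjusted p = 0.098, limma). With a replicate block it passed (adjusted p = 0.0213). The nearest 100 tested genes had medians of 0.05 in C9orf89-KO, 0.33 in MAGI2-KO, 0.40 in MLPH-KO and −0.02 in RHBDD2-KO.

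SMAD7, an inhibitor of both the BMP and the TGF-beta branch, did not pass the threshold against Non-target in any clone. SMAD7 (ENSG00000101665, chromosome 18 from 48919853 to 48952052) was at 4.91, 4.61 and 3.73 FPKM in Non-target, and its lowest Non-target well lay below all 12 clone wells. It was at 3.88 to 4.38 FPKM in C9orf89-KO, 4.58 to 4.95 in MAGI2-KO, 4.04 to 4.31 in MLPH-KO and 3.92 to 4.09 in RHBDD2-KO. The log2 fold changes were −0.08 (95% interval −0.27 to 0.12), 0.12 (−0.07 to 0.32), −0.07 (−0.26 to 0.12) and −0.12 (−0.32 to 0.07). Without Non-target replicate 3, SMAD7 passed in RHBDD2-KO (−0.24, adjusted p = 0.0294, limma). Between clones it was higher in MAGI2-KO than in RHBDD2-KO (0.25, adjusted p = 0.0407), a call made under 16 of 26 settings. With TPM scaling the difference was 0.09 (adjusted p = 0.498, limma), and with no filter on low values the adjusted p was 0.0666. The call was also lost without any 1 of 7 libraries: MAGI2-KO replicate 2 (adjusted p = 0.0988) or 3 (0.115), RHBDD2-KO replicate 1 (0.0989), 2 (0.0791) or 3 (0.0715), and MLPH-KO replicate 2 (0.0504) or 3 (0.0514), and without wells 1 of every group (0.0776).

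**Figure D2:**
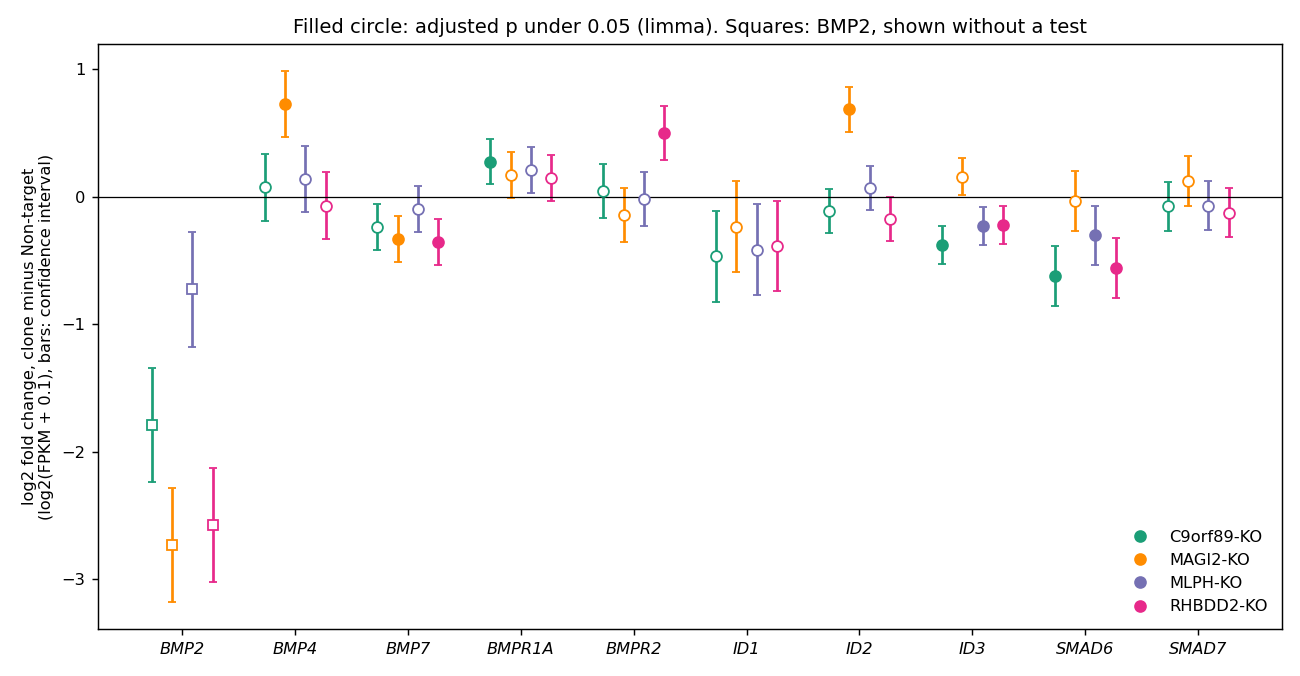
Log2 fold change on the log2(FPKM + 0.1) scale of each clone against Non-target (vertical axis) for the 10 genes, with 95% intervals from limma. Filled circles passed an adjusted p of 0.05 and BMP2 is shown as open squares without a test; ID2 lies at 0.68 in MAGI2-KO, and SMAD6 at −0.62 in C9orf89-KO and −0.56 in RHBDD2-KO.

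Counted over the 9 members other than BMP2, 3 passed in C9orf89-KO (BMPR1A up, ID3 and SMAD6 down), where 26.0% of all tested genes passed. The count was 3 in MAGI2-KO (BMP4 and ID2 up, BMP7 down; 36.1% of all tested genes), 2 in MLPH-KO (ID3 and SMAD6 down; 30.1%) and 4 in RHBDD2-KO (BMPR2 up, BMP7, ID3 and SMAD6 down; 34.1%). With so many genes past the threshold in every clone, these counts are near the background and are no result about the members as a set. Of the 5 targets, 2 fell and 0 rose in C9orf89-KO, MLPH-KO and RHBDD2-KO, where 13.1%, 15.5% and 16.7% of all tested genes fell and 12.9%, 14.5% and 17.4% rose. In MAGI2-KO 1 rose and 0 fell, where 17.0% rose and 19.1% fell. The median log2 fold change of the 5 targets was −0.38 in C9orf89-KO, 0.12 in MAGI2-KO, −0.23 in MLPH-KO and −0.22 in RHBDD2-KO, beside medians of all tested genes between −0.01 and 0.00. Rescaling to TPM moved the median of all tested genes in RHBDD2-KO to 0.15, and the split of higher and lower genes there from 2813 and 2698 to 4313 and 1561. In C9orf89-KO the split moved from 2091 and 2119 to 2357 and 1460. On that scale ID3 in RHBDD2-KO was at −0.07 (adjusted p = 0.567, limma) beside that median. Without wells 1 of every group, 5, 4, 3 and 5 of the 9 members passed in C9orf89-KO, MAGI2-KO, MLPH-KO and RHBDD2-KO, where 32.4%, 40.4%, 36.9% and 42.0% of all tested genes passed in that setting. Among the 5 targets, ID1 then fell in each clone and ID2 in RHBDD2-KO, while ID3 no longer passed in MLPH-KO and RHBDD2-KO.

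Between clones, the 9 members other than BMP2 were counted. Between C9orf89-KO and MAGI2-KO 4 passed (22.5% of all tested genes), and BMP4, ID2, ID3 and SMAD6 were higher in MAGI2-KO. The log2 fold changes of C9orf89-KO against MAGI2-KO were −0.65 for BMP4, −0.80 for ID2, −0.53 for ID3 and −0.59 for SMAD6. Between C9orf89-KO and MLPH-KO 0 passed in limma (14.2% of all tested genes), 0 passed with voom, and 2, ID2 and SMAD6, had an unadjusted p under 0.05. BMPR2 was the 1 member that passed between C9orf89-KO and RHBDD2-KO (29.3%). Between MAGI2-KO and MLPH-KO 3 passed (21.2%), with BMP4, ID2 and ID3 higher in MAGI2-KO. Between MAGI2-KO and RHBDD2-KO 6 passed (41.6%), with BMP4, ID2, ID3, SMAD6 and SMAD7 higher and BMPR2 lower in MAGI2-KO. The BMP2 wells of these 2 clones overlapped, while ID2 differed by 0.86 and BMP4 by 0.80 on the log2 scale. Between MLPH-KO and RHBDD2-KO 3 passed (37.0%): BMP7 (0.26, adjusted p = 0.027) and ID2 (0.24, adjusted p = 0.0315) were higher in MLPH-KO and BMPR2 was lower. With TPM scaling the differences of BMP7 and ID2 were 0.10 and 0.08 (adjusted p = 0.481 and 0.573, limma), and neither passed. The ID2 call was also lost with no filter on low values (0.056), only the 6 libraries contrasted (0.0575) and quantile normalization (0.073). The BMP7 call was lost without MLPH-KO replicate 3 (adjusted p = 0.09) or any RHBDD2-KO replicate (0.0551, 0.0632 and 0.0663), and the ID2 call without MLPH-KO replicate 1 (0.0662) or 2 (0.113) or RHBDD2-KO replicate 1 (0.12) or 2 (0.0502).

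Other calls between clones were gained under other settings. With a replicate block, SMAD6 was called between MLPH-KO and C9orf89-KO (adjusted p = 0.0122, limma), MAGI2-KO (0.0213) and RHBDD2-KO (0.0174). These pairs had 22.5%, 29.4% and 45.2% of all tested genes called in that setting. BMP7 (MAGI2-KO and MLPH-KO, 0.0201) and ID2 (C9orf89-KO and MLPH-KO, 0.0473) were called there too. SMAD6 between C9orf89-KO and MLPH-KO passed with quantile normalization (0.0423), and ID3 between C9orf89-KO and RHBDD2-KO with TPM scaling (0.0375). Without wells 1 of every group, SMAD6 was called between MLPH-KO and each other clone: lower in C9orf89-KO (−0.40, adjusted p = 0.00549, limma), higher in MAGI2-KO (0.27, adjusted p = 0.0177) and, as MLPH-KO against RHBDD2-KO, 0.20 (adjusted p = 0.038). SMAD6 was then also lower in C9orf89-KO than in RHBDD2-KO (−0.20, adjusted p = 0.0461), and BMPR2 was lower in MAGI2-KO than in C9orf89-KO (0.27 for C9orf89-KO against MAGI2-KO, adjusted p = 0.0489) and MLPH-KO (−0.30, adjusted p = 0.0368). The shares of all tested genes called in that setting were 31.2% between C9orf89-KO and MAGI2-KO, 19.5% between C9orf89-KO and MLPH-KO, 34.9% between C9orf89-KO and RHBDD2-KO, 25.8% between MAGI2-KO and MLPH-KO and 39.4% between MLPH-KO and RHBDD2-KO. Without MLPH-KO replicate 1 alone, SMAD6 passed between C9orf89-KO and MLPH-KO (−0.39, adjusted p = 0.0484) and between MLPH-KO and RHBDD2-KO (0.33, adjusted p = 0.0459), and without RHBDD2-KO replicate 1 between MLPH-KO and both C9orf89-KO (adjusted p = 0.0225) and MAGI2-KO (0.0352). BMP7 passed between MAGI2-KO and MLPH-KO without MAGI2-KO replicate 3 (−0.33, adjusted p = 0.00969), BMP4 between MLPH-KO and RHBDD2-KO without MLPH-KO replicate 3 (0.33, adjusted p = 0.0433), and SMAD7 between C9orf89-KO and MAGI2-KO without Non-target replicate 3 (−0.20, adjusted p = 0.0486).

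The rest of the pathway was read from lists of 69 further genes, of which 53 were tested. The nearest 100 tested genes were compared for the 10 members only. For the further genes, a shift shared with their stretch of the chromosome was not tested. In C9orf89-KO 18 of the 53 passed, 4 up and 14 down (34.0%). In MAGI2-KO 23 passed, 10 up and 13 down (43.4%), in MLPH-KO 23, 10 up and 13 down (43.4%), and in RHBDD2-KO 25, 10 up and 15 down (47.2%). Their median log2 fold changes were −0.05, −0.06, −0.03 and 0.00, near those of all tested genes. These counts hold genes that reached the filter on low values only through the group where they were higher, which were BMPER in each clone, BMP8A in MLPH-KO and FST in RHBDD2-KO. Without them 17 of 52 passed in C9orf89-KO (32.7%), 22 of 52 in MAGI2-KO (42.3%), 22 of 51 in MLPH-KO (43.1%) and 24 of 51 in RHBDD2-KO (47.1%). With such genes left out in the same way, 26.0%, 36.2%, 30.2% and 34.1% of all tested genes passed, and the lists were not tested against them.

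Among receptors and co-receptors, 10 of 13 listed genes were tested. RGMA, a co-receptor that strengthens BMP signalling, rose in all 4 clones, from 2.97 FPKM in Non-target to 3.93 in C9orf89-KO, 4.88 in MAGI2-KO, 5.22 in MLPH-KO and 4.11 in RHBDD2-KO (log2 fold changes 0.40, 0.69, 0.79 and 0.45, adjusted p = 0.0151, 0.000243, 0.000125 and 0.00537, limma). Its call in C9orf89-KO was lost without C9orf89-KO replicate 3 (adjusted p = 0.0563) or Non-target replicate 1 (0.058). Across the whole table, 3.39% of tested genes rose in all 4 clones and 3.26% fell in all 4. BMPR1B, a second type I receptor, fell in C9orf89-KO (−0.76, adjusted p = 0.00291) and in MLPH-KO (−0.57, adjusted p = 0.0132), the latter lost without MLPH-KO replicate 2 (0.0513) or Non-target replicate 3 (0.0524), or wells 1 of every group (0.0624). Of the 4 SMAD transducers, 0 passed in C9orf89-KO, SMAD5 (in 14 of 26 settings) and SMAD4 fell in MAGI2-KO, SMAD9 and SMAD1 fell in MLPH-KO, and SMAD5 rose in RHBDD2-KO, beside 26.0%, 36.1%, 30.1% and 34.1% of all tested genes that passed. SMAD1 in MLPH-KO changed most among them (log2 fold change −0.57, adjusted p = 0.00188, limma), from 2.47 to 1.63 FPKM.

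Of the secreted antagonists, which bind BMPs outside the cell, 11 of 17 listed genes were tested. NBL1, an antagonist of BMP2 and BMP4, rose in all 4 clones, from 4.08 FPKM in Non-target to 6.60 in C9orf89-KO, 5.59 in MAGI2-KO, 7.31 in MLPH-KO and 6.48 in RHBDD2-KO (log2 fold changes 0.69, 0.45, 0.83 and 0.66, largest adjusted p = 0.00316, limma). It passed under all 26 settings in each clone. BMPER, which can enhance or block BMPs, reached the 0.5 FPKM of the filter in the 3 Non-target wells only, so its differences from Non-target are a description, with no test. Its mean was 0.764 FPKM in Non-target, 0.400 in C9orf89-KO, 0.143 in MAGI2-KO, 0.412 in MLPH-KO and 0.355 in RHBDD2-KO. CHRDL1, a chordin relative, fell from 1.23 FPKM to 0.290 in MLPH-KO (−1.76, adjusted p = 0.000118) and 0.173 in RHBDD2-KO (−2.30, adjusted p = 1.2e-05), and CHRD, chordin itself, rose in MAGI2-KO (1.13, adjusted p = 0.00351). NOG (noggin) fell in C9orf89-KO (−0.71, adjusted p = 0.00301) and MAGI2-KO (−0.47, adjusted p = 0.0211).

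Of the inhibitors inside the cell or in its membrane, all 11 were tested, and 3, 3, 4 and 5 passed in C9orf89-KO, MAGI2-KO, MLPH-KO and RHBDD2-KO, or 27.3%, 27.3%, 36.4% and 45.5%, beside 26.0%, 36.1%, 30.1% and 34.1% of all tested genes. SMURF1, a ubiquitin ligase for SMAD1 and SMAD5, fell in MAGI2-KO from 5.27 to 2.98 FPKM (log2 fold change −0.81, adjusted p = 5.4e-06, limma) and in MLPH-KO (−0.28, adjusted p = 0.0149; 0.0589 without MLPH-KO replicate 1, 0.0597 with TPM scaling and 0.0543 with only the 6 libraries contrasted). SKI, a corepressor of SMADs, rose in RHBDD2-KO from 16.5 to 32.5 FPKM (0.97, adjusted p = 0.0003).

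The wider list of 21 BMP target genes had 18 tested members. In C9orf89-KO 0 rose and 5 fell, in MAGI2-KO 5 rose and 3 fell, in MLPH-KO 5 rose and 4 fell, and in RHBDD2-KO 1 rose and 8 fell. The shares of all tested genes that rose and fell were 12.9% and 13.1% in C9orf89-KO, 17.0% and 19.1% in MAGI2-KO, 14.5% and 15.5% in MLPH-KO and 17.4% and 16.7% in RHBDD2-KO, and the counts of the list were not tested against them. ID4, the fourth ID gene, rose in RHBDD2-KO to 143, 163 and 148 FPKM, from 36.4, 40.1 and 36.0 FPKM in Non-target. No other group exceeded 45.9 FPKM per well, and the log2 fold change was 2.01 (standard error 0.07, adjusted p = 9.98e-10, limma). ID4 also rose in MLPH-KO (0.27, adjusted p = 0.0123; 0.0514 without Non-target replicate 3) and fell in C9orf89-KO (−0.38, adjusted p = 0.00191) and MAGI2-KO (−0.32, adjusted p = 0.00363). TMEM100, a membrane protein gene under BMP control in endothelium, rose in MAGI2-KO (1.10, adjusted p = 0.000301) and MLPH-KO (1.18, adjusted p = 0.000246) and fell in RHBDD2-KO (−1.62, adjusted p = 1.78e-05). GATA3, a transcription factor of kidney and T cell development, fell in all 4 clones, from 6.30 FPKM in Non-target to 3.31 FPKM in RHBDD2-KO (−0.91, adjusted p = 1.98e-05) and to 4.20 to 4.72 FPKM in the other 3.

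The 3 E proteins, the partners that ID proteins hold off DNA, were all tested. TCF4 fell in all 4 clones by 0.40 to 0.44 on the log2 scale, from 1.49 FPKM to between 1.07 and 1.10 FPKM, and its calls held under 19 to 22 of 26 settings. Leaving out Non-target replicate 1 ended all 4 of them (adjusted p = 0.0579, 0.0684, 0.052 and 0.0724, limma). TCF12 rose in MAGI2-KO (0.36, adjusted p = 0.00227, limma) and MLPH-KO (0.38, adjusted p = 0.00232). TCF3 fell in MLPH-KO (−0.46, adjusted p = 0.0273), a call lost without MLPH-KO replicate 1 (0.0947) or 2 (0.0547) or Non-target replicate 2 (0.106) or 3 (0.0892). The 3 proteases that can cleave BMP precursors, FURIN, PCSK5 and PCSK6, all fell in C9orf89-KO, by 0.47 to 0.48 on the log2 scale, PCSK6 not with TPM scaling (adjusted p = 0.0583, limma). PCSK5 alone fell in MAGI2-KO and RHBDD2-KO, and 0 of the 3 passed in MLPH-KO. Of all tested genes, 13.1% fell in C9orf89-KO, 19.1% in MAGI2-KO, 15.5% in MLPH-KO and 16.7% in RHBDD2-KO.

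The genes whose pattern over the 15 libraries was most like that of BMP2, by the Pearson correlation of log2(FPKM + 0.1) among 12533 genes with a mean of at least 1 FPKM, were RASL10B (r = 0.954), GPC4 (0.954), CHPT1 (0.945), MAF (0.940) and WNT5A (0.940). The points share their libraries and group means, and the values are a description. RASL10B was at 15.5 FPKM in Non-target, 11.5 in MLPH-KO, 4.64 in C9orf89-KO, 4.54 in RHBDD2-KO and 3.30 in MAGI2-KO, the same order as BMP2. The genes most like ID1 were B4GALT2 (0.944), NT5DC2 (0.936), LRFN4 (0.925), TELO2 (0.925) and THAP4 (0.921).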

How the data were processed

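RNA of the 15 libraries was extracted from wells of HEK293T cells, and libraries were made with a kit that is not stated to mark strand. The authors deposited 1 value per gene and library, read here as FPKM, a unit that no source used here states. Submitters' processing notes name HISAT2 2.0.5, featureCounts 1.5.0-p3 and DESeq2, and the genome build is not given in the sources used here. Each value times the exon length in GENCODE release 29 (GRCh38) was a whole number of fragments for 100% of the values, within a tolerance of 0.02, and these fragments gave the depth. Intervals cover the spread between wells only.

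A gene was tested if 3 or more libraries reached 0.5 FPKM, with limma 3.58.1 (R 4.3.3, eBayes with a trend) on log2(FPKM + 0.1), which understates the change of low genes. All 15 libraries entered 1 fit with group as the only term, with Benjamini-Hochberg adjustment within each contrast and a threshold of 0.05. Groups came from the labels. Counts between clones were planned over all 10 genes and are given without BMP2, a choice made after its values were seen. The fit was tested on simulated data for RHBDD2-KO against Non-target. It recovered 5 of 47 changes of 1.5-fold, 35 of 49 of 2-fold, 47 of 50 of 4-fold and 41 of 48 of 0.25-fold in the right direction. Few of the 15719 genes tested there were changed, and their spread was set by hand. In the data 34.1% of tested genes passed for this pair, so the shares recovered need not hold for the data. Python 3.11.15 with pandas 2.3.3, numpy 2.4.6 and matplotlib 3.10.9 did the rest.

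Members and lists were chosen with earlier results of these data known. The genes named are the members and, per list, every gene past the threshold in the same direction in all 4 clones and the largest rise and fall without overlap with Non-target. BMP6, GDF6, GDF7, NOG, FURIN, PCSK5, SMAD4 and SMAD9 were added after their values were seen. Likeness used the 5 highest correlations. The 26 alternatives were pseudocounts of 0.01 and 1, no filter, a mean of at least 1 FPKM, quantile normalization, TPM scaling, no trend, only the 6 libraries contrasted, a replicate block, limma's voom on the recovered fragments, each library left out in turn and wells 1 left out together.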

Additional observations from a re-analysis of the deposited data

How the results depend on the processing

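Over the 9 members other than BMP2 and their 4 contrasts with Non-target, 869 of 936 values under the alternatives kept their side of the threshold, 34 lost the call and 33 gained one. The sign differed in 14 values of 8 pairs of gene and clone (−0.02 to 0.13 on the log2 scale), and 0 of these were called in either fit. BMP2 was lower in each clone under every alternative that held it, and it could not be fitted with a mean of at least 1 FPKM. Its log2 fold change in C9orf89-KO, MAGI2-KO, MLPH-KO and RHBDD2-KO moved with the pseudocount, because its values are low: it was −0.89, −1.15, −0.42 and −1.11 with a pseudocount of 1, and −2.01, −3.32 and −3.09 with 0.01 in C9orf89-KO, MAGI2-KO and RHBDD2-KO. With voom on recovered fragments these 3 were −2.02, −3.34 and −3.11, and with TPM scaling −1.91, −3.18 and −2.83. Quantile normalization gave −3.09 in MAGI2-KO. Leaving out libraries gave −1.83 to −1.70 in C9orf89-KO, −2.84 to −2.62 in MAGI2-KO, −0.81 to −0.61 in MLPH-KO and −2.73 to −2.40 in RHBDD2-KO, the first reaching −1.70 without wells 1 of every group.

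Counts of members past the threshold are over the 9 genes other than BMP2, each with the share of all tested genes called in the same setting. In C9orf89-KO the count was 5 in place of 3 with a mean of at least 1 FPKM (29.4%), with voom (26.2%) and without wells 1 of every group (32.4%), and 2 to 5 leaving out libraries (20.3% to 32.4%). In MLPH-KO it was 1 in place of 2 with a pseudocount of 0.01 (29.8%), with no filter (14.4%), with quantile normalization (29.2%), with TPM scaling (27.2%) and without the trend (29.6%), 0 with only the 6 libraries contrasted (22.1%), and 0 to 3 leaving out libraries (24.0% to 36.9%). Leaving out libraries gave 3 to 4 in MAGI2-KO (29.4% to 40.4%) and 3 to 6 in RHBDD2-KO (26.4% to 42.0%). Between C9orf89-KO and MLPH-KO the count was 1 in place of 0 with quantile normalization (14.7%) and 0 to 1 leaving out libraries (9.63% to 19.5%). Between C9orf89-KO and RHBDD2-KO it was 2 in place of 1 with TPM scaling (29.5%) and 1 to 2 leaving out libraries (23.3% to 34.9%). TPM scaling gave 3 in place of 6 between MAGI2-KO and RHBDD2-KO (43.7%) and 1 in place of 3 between MLPH-KO and RHBDD2-KO (39.6%), the latter 1 to 4 leaving out libraries (30.8% to 39.4%). Between MAGI2-KO and MLPH-KO the range leaving out libraries was 3 to 5 (15.3% to 25.8%). The pathway gene counts leaving out libraries were 12 to 19, 18 to 27, 15 to 23 and 22 to 27 in C9orf89-KO, MAGI2-KO, MLPH-KO and RHBDD2-KO, BMPER included and over the same ranges of background shares, with the 15 in MLPH-KO reached without Non-target replicate 3. The causes were not tested.

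Wells share replicate numbers across groups, but the labels do not say what a number marks. Same-numbered wells had a median correlation of deviations of 0.0856 (0.00103 to 0.312, 30 pairs) and differently numbered wells one of −0.0887 (60 pairs), and 12 of 15 libraries correlated best with their own number, a hint from the data of a shared number effect. Since not all same-numbered pairs exceeded 0.1, the block is an alternative only. With the replicate block, 5, 3, 3 and 6 of the 9 members passed in C9orf89-KO, MAGI2-KO, MLPH-KO and RHBDD2-KO, where 35.4%, 44.3%, 38.9% and 43.5% of all tested genes did. Between C9orf89-KO and MLPH-KO 2 passed (22.5%) and between MAGI2-KO and MLPH-KO 5 (29.4%). ID1 passed in C9orf89-KO, MLPH-KO and RHBDD2-KO (adjusted p = 0.00194, 0.00341 and 0.0046, limma).

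A gene with few fragments, such as BMP2 in MAGI2-KO and RHBDD2-KO, has a fold change whose size depends on the pseudocount. Other limits are the single clone per knockout and the control wells shared by 4 comparisons.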

Other observations

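The sister branch of the pathway, in which TGF-beta and activin ligands signal through SMAD2 and SMAD3, was read from lists of the same kind. Genes near these on the chromosome were not compared, so a shift shared with their stretch was not tested. TGFBR2, the type II receptor for TGF-beta, fell in all 4 clones. Its RNA was at 3.69, 3.68 and 3.80 FPKM in the Non-target wells, 1.31, 1.22 and 1.47 in C9orf89-KO, 0.799, 0.921 and 0.850 in MAGI2-KO and 1.22, 1.53 and 1.51 in MLPH-KO. In RHBDD2-KO it is listed at 0 in well 1 and was at 0.0251 and 0.0131 FPKM in wells 2 and 3. The log2 fold changes were −1.42 in C9orf89-KO (limma with Benjamini-Hochberg adjustment, adjusted p = 7.97e-06) and −1.34 in MLPH-KO (adjusted p = 1.09e-05). In MAGI2-KO the mean was 0.230 times that of Non-target (adjusted p = 2.48e-07). In RHBDD2-KO, where almost no fragments were counted, the log2 fold change of −5.09 (adjusted p = 1.07e-10) depends on the pseudocount. TGFBR1, the type I receptor, fell in all 4 clones, though with TPM scaling neither in RHBDD2-KO (−0.14, adjusted p = 0.204, limma) nor in C9orf89-KO (−0.13, adjusted p = 0.271). The fall was 0.19 to 0.36 on the log2 scale, from 9.69 FPKM to between 7.52 and 8.49 FPKM, and its call in C9orf89-KO held under 19 of 26 settings, and not without C9orf89-KO replicate 1 (adjusted p = 0.0682, limma) or 3 (0.0919) or Non-target replicate 1 (0.0512) or 3 (0.103).

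Of 11 tested TGF-beta and activin ligand, receptor and SMAD genes other than INHA, 5, 3, 4 and 4 passed in C9orf89-KO, MAGI2-KO, MLPH-KO and RHBDD2-KO, or 45.5%, 27.3%, 36.4% and 36.4%, beside 26.0%, 36.1%, 30.1% and 34.1% of all tested genes. INHA, the alpha subunit of inhibin, had a mean of 0.128 FPKM in Non-target and 0.635 FPKM in MAGI2-KO. It passed the filter on low values through 2 MAGI2-KO wells and 1 C9orf89-KO well, groups where it was high, so this difference is a description, with no test. Of 10 tested targets of SMAD2 and SMAD3, 4 rose and 2 fell in C9orf89-KO, 3 rose and 3 fell in MAGI2-KO, 3 rose and 1 fell in MLPH-KO, and 1 rose and 3 fell in RHBDD2-KO. Of all tested genes, 12.9% rose and 13.1% fell in C9orf89-KO, 17.0% and 19.1% in MAGI2-KO, 14.5% and 15.5% in MLPH-KO, and 17.4% and 16.7% in RHBDD2-KO. BHLHE40, a transcription factor of the clock and of hypoxia responses, fell in all 4, from 6.94 FPKM to 4.70, 5.08, 5.05 and 4.49 FPKM. TGFB1I1, a focal adhesion protein gene, rose in MAGI2-KO (1.22, adjusted p = 0.000467), and COL4A1, a basement membrane collagen, fell in RHBDD2-KO (−0.79, adjusted p = 1.01e-05).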
